A study of Mus musculus with 4 samples.

Results

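A group of 192 ATAC-seq peaks at the ends of protein-coding genes had higher levels after a type I arginine methyltransferase inhibitor than after solvent. They were chosen by position, level and difference from the 97699 peaks of the authors' deposited table. The centre of the peak had to lie no more than 1 kb from an annotated start or far end of a protein-coding gene, its mean level had to be at least 8.5 log2 normalised reads (362 reads), and its level under the inhibitor had to exceed that in DMSO by at least 0.2 log2, a ratio of 1.15. Of 13854 peaks at gene ends, 8316 reached that level, and 192 of these, or 2.31%, gained. They lay within 1 kb of 214 genes. Since the level and the difference chose the peaks, both are given as a description, and no test of them is made.

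The study used MC38/gp100 cells, a colon cancer line of the mouse that expresses the melanocyte protein gp100, and every library came from this 1 line. One group of 2 libraries came from cells given DMSO for 5 days and the other group of 2 from cells given 1 µM GSK3368712 for 5 days. The labels do not name separate cultures behind the 2 libraries of a group. The table gives group means, so no value per library can be shown, and spread between libraries enters only through the authors' p-values, which may measure technical spread. All levels and adjusted p-values that follow are the authors'. Markers of the labelled cell type were mostly without a gene-end peak. The mesenchymal markers Vim, Fn1, Col1a1 and Pdgfrb had such peaks at levels of 8.89 to 11.5. Of 8 epithelial and colon markers, Krt8 had 3 such peaks, the highest at 8.33, and Epcam, Krt18, Krt19, Cdh1, Vil1, Cdx1 and Cdx2 had none. Of 13 markers of blood, endothelial and melanocyte cells, 6 had a gene-end peak, and Spi1 at 9.28 and Mitf at 10.16 reached the level limit.

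Type I arginine methyltransferases add asymmetric dimethyl groups to arginines of histone tails and of many RNA-binding proteins. PRMT1 carries out most of this activity in mammalian cells, and methylation of histone H4 at its arginine near the tail's tip is associated with active promoters. Open chromatin at a gene end is in most cases the nucleosome-depleted region at the transcription start, where general factors and polymerase bind. It can also lie around the far end of the gene, where transcription stops.

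The promoter sequences of 6 gaining genes are shown because they span the kinds of start at which accessibility rose. H2bc15 and H3c4 are core histone genes, Chst2 and Reck have starts rich in G and C, and Ltbp1 and Mitf lie between. Each runs from 250 bases before the RefSeq start to 50 bases after it, 5′ to 3′ on the gene's strand, on GRCm38.p6, the assembly of mm10. Capitals mark matches on either strand to any of the motifs searched. The CCAAT box was read as CCAAT. The GC box, bound by SP and KLF factors, was read as GGGCGG. The TATA box was read as TATAAA. The cAMP response element was read as TGACGTCA. Boxes that overlap run together.
H2bc15, chr13:21753826-21754125, plus strand: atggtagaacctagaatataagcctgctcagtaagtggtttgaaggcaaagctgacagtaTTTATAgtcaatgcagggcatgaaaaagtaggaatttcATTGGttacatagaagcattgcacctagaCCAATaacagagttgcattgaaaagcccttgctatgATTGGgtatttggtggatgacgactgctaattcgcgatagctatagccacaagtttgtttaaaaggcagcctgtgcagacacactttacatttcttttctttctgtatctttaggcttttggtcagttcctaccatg
H3c4, chr13:23575513-23575812, plus strand: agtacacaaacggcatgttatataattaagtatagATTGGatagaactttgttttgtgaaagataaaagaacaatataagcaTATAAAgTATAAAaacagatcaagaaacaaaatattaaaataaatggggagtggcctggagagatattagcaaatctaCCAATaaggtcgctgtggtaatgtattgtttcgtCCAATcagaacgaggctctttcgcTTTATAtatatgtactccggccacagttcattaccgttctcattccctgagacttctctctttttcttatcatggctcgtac
Chst2, chr9:95407221-95407520, minus strand: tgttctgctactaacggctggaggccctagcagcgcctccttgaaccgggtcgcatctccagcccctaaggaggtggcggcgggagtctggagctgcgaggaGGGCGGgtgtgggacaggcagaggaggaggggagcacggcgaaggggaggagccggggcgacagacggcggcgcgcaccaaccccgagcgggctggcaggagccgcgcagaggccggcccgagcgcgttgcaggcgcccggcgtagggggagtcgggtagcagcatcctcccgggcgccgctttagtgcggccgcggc
Reck, chr4:43875280-43875579, plus strand: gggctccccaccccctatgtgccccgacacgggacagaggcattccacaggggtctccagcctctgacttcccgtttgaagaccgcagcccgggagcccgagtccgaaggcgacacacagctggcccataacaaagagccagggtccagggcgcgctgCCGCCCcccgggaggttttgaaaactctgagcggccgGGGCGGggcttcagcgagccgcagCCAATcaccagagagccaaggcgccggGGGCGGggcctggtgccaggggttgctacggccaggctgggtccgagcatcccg
Ltbp1, chr17:75005279-75005578, plus strand: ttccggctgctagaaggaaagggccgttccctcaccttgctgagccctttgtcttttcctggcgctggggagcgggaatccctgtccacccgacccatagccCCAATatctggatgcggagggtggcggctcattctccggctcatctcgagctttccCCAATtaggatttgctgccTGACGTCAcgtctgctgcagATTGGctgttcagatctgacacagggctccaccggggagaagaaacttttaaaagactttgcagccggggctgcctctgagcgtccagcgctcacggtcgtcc
Mitf, chr6:97806808-97807107, plus strand: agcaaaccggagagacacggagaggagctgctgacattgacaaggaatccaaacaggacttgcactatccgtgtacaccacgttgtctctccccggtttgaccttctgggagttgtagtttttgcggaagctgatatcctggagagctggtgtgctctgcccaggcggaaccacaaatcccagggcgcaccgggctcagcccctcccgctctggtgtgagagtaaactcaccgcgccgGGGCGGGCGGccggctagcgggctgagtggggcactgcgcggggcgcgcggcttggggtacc
The windows of H2bc15 and H3c4 hold 40.0% and 34.7% G and C, with 3 CCAAT boxes each. TATA boxes begin at -168, -161 and -32 from the start of H3c4, and the one in H2bc15 begins 190 bases before the start. The match at -32 and the one in H2bc15 read TTTATA, the motif on the opposite strand. The H3c4 peak starts at 23575662, so the matches at -168 and -161 and the CCAAT box at -215 lie outside it. The windows of Chst2 and Reck hold 73.0% and 69.3% G and C, with 1 and 3 GC boxes. The Ltbp1 window, at 58.7%, holds 3 CCAAT boxes and a cAMP response element whose first base lies 73 bases before the start. The Mitf window, at 62.7%, has a pair of overlapping GC boxes. A match is a run of letters and not evidence of binding.

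The gains were small. Their median difference was 0.24 log2, a ratio of 1.18, with quartiles of 0.21 and 0.27, and the largest was 0.73, a ratio of 1.66. Of the 192 peaks, 160 lay under 0.3 log2 and 33 at exactly 0.20. All 192 had been tested by the authors, and 19 had a deposited adjusted p under 0.05, the threshold for a call used throughout. For comparison, 0.492% of all tested peaks were called higher, as were 0.252% of tested gene-end peaks and 0.253% of those at the level limit. Calls in the other direction were made at 6.09%, 1.54% and 1.28% of the same sets. The rule used the same contrast, so nothing is read from the difference between these shares. An unadjusted p under 0.05 was reached by 93 of the 192, and by 2.18% of all tested peaks in the upward direction. At the limit, Slc25a16, Ehd2 and Galnt12 lay just inside with 0.20, and Csf1, a second peak at H3c11 and Rhbdf1 just outside with 0.19. Under a scaling that equalised the groups' summed reads, 46 of the 192 were called. Away from gene ends, 433 of 10153 peaks at the same level limit gained, or 4.26%, and 3090 lost, or 30.4%.

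**Figure D1:**
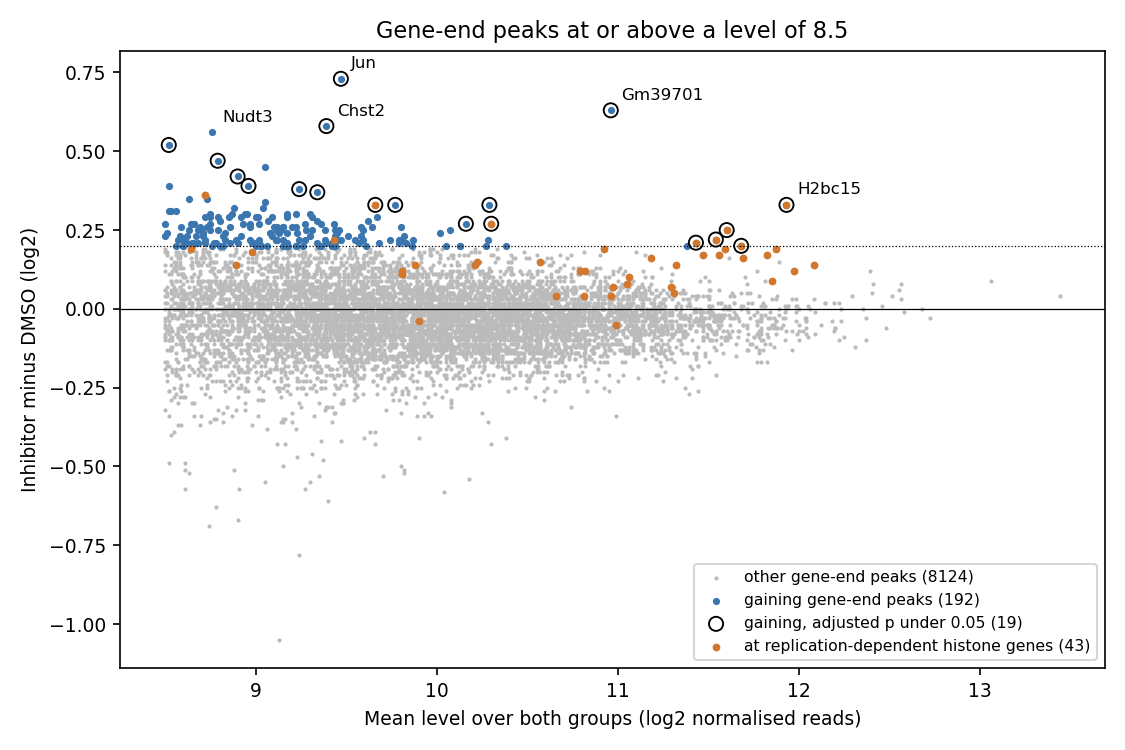
Each point is 1 gene-end peak, with the mean level over both groups in log2 normalised reads on the x axis and the difference inhibitor minus DMSO in log2 on the y axis. The 192 gaining peaks lie on or above the dotted line at 0.2, mostly at low levels, and the 19 called ones are circled. Orange marks all 43 peaks at replication-dependent histone genes, of which 41 lie above 0.

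The largest gain stood behind the gene Jun, which encodes the AP-1 subunit c-Jun. The peak at chr4:95048074-95048639 went from 9.06 log2 normalised reads in DMSO to 9.79 under the inhibitor (534 and 885 reads), a difference of 0.73 with a derived standard error of 0.105 and a deposited adjusted p of 2.34e-09. Its centre lay 679.5 bp beyond the far end of the gene, and the much stronger peak at the Jun start, at a level of 12.46, had a difference of 0.01. The rise at Jun thus concerned the downstream peak and not the start. Of 12 other tested peaks within 50 kb, 2 lay above 0, 0 were called higher and 1 was called lower. Jund, for a further AP-1 subunit, had its gaining peak inside the gene, 695.5 bp from the far end, with levels of 9.01 and 9.26, but its difference of 0.25 did not pass (adjusted p = 0.338 in the authors' deposited table). A list of AP-1 and immediate early genes, transcription factors and regulators induced within minutes of a stimulus, had 28 genes with a gene-end peak at the level limit. Of these 28, Jun and Jund gained and 1 gene had a losing peak, while 2.32% of all genes with such a peak gained. Only 9 of the 28 genes lay above 0, with a median of -0.035 against -0.03 over all genes.

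Other transcription factor genes were among the called peaks. At Nfe2l3, which encodes a CNC-bZIP factor related to NRF2, a peak inside the gene, 918 bp from the far end, rose from 9.04 to 9.42 log2 (adjusted p = 0.0203 in the authors' deposited table). Its neighbour Hnrnpa2b1, for an RNA-binding protein that takes part in splicing, had a gaining peak beyond its own far end, 1.95 kb away, with 0.20. Mitf, the factor that directs melanocyte development, rose at an annotated start from 10.01 to 10.28 log2, 1031 to 1243 reads (adjusted p = 0.0265 in the authors' deposited table). This peak's centre lay 212 bp from the outermost start of the 214359 bp gene. Of 11 other tested peaks in Mitf, 1 was called lower and 0 higher, and their median was -0.29. Peaks that met the rule without a call lay at the T-box factor gene Eomes with 0.29, at Tcf7l1, a repressor in Wnt signalling, with 0.22, and at the forkhead factor gene Foxo1 with 0.25. The circadian activator gene Clock had 0.26, the ETS factor gene Etv3 0.21 and the GC-box factor gene Sp2 0.32. In all, 23 gaining peaks were nearest to genes for transcription factors or their partners, and 3 of them were called, beside 19 of all 192. This group was put together after the values were seen. Such genes were not counted among the other gene-end peaks, so whether their share differs there was not tested.

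Several called peaks lay at genes of the matrix, secreted factors and sulfated sugar chains, a group put together after the values were seen. Chst2, a sulfotransferase that modifies N-acetylglucosamine on glycoproteins, rose from 9.07 to 9.65 log2 at its start (538 and 803 reads, chr9:95406522-95408069). That is a difference of 0.58 with a derived standard error of 0.116 and a deposited adjusted p of 6.08e-05. Ltbp1, which anchors latent TGF-beta in the matrix, went from 8.24 to 8.76 at its start (adjusted p = 0.00537 in the authors' deposited table). Of 24 other tested peaks in the long Ltbp1 gene, 5 were called lower and 0 higher, and their median was -0.315. Reck, a membrane-anchored inhibitor of matrix metalloproteinases, rose from 8.67 to 9.09 at its start, and Lamc3, a laminin gamma chain, from 10.12 to 10.45 at a gene end. Their adjusted p-values were 0.0222 and 0.00585 in the authors' deposited table. P4ha2, for a collagen prolyl hydroxylase, had 0.31 without a call. So did Ust, Ndst2 and Chpf2, enzymes that build or sulfate glycosaminoglycan chains, with 0.22, 0.20 and 0.20, and Crh, for corticotropin-releasing hormone, with 0.27. With Crim1, for a membrane protein that binds BMPs, these made 10 peaks, of which 4 were called, beside 19 of all 192. The edges of the group are loose, since the Wnt ligand gene Wnt9a was placed with signalling, so nothing is read from this share. Genes of this group were not counted among the other gene-end peaks either. The separate list of matrix and mesenchyme genes, which holds fibrillar collagens and fibronectin, had 0 gaining among 22 genes with a peak and a median of gene medians of 0.00.

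Peaks at 2 gene ends among the S100 genes on chromosome 3, which encode small calcium-binding proteins, rose. The peak at S100a2 went from 9.15 to 9.52 log2 (adjusted p = 0.0138 in the authors' deposited table). The peak shared by S100a5 and S100a4, the latter a gene tied to cell motility, went from 370 to 512 normalised reads (adjusted p = 0.0154 in the authors' deposited table). Their centres lay 16.7 kb apart. Between them lay a further peak at S100a4, with levels of 10.18 and 9.99 and a difference of -0.19 (adjusted p = 0.228 in the authors' deposited table), so the gene-end peaks of this stretch did not share a direction. Among 15 and 16 other tested peaks within 50 kb of them, 6 lay above 0 in each case. In each case 1 neighbour was called higher, the partner peak, and 1 was called lower.

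Histone genes held 7 of the 19 called peaks. The replication-dependent histone genes, which package new DNA in S phase and lie in clusters, had 43 gene-end peaks at the level limit. Of these, 41 lay above 0, 0 lost and 9 gained, with a median of 0.14 over the 43 against -0.03 over all 8316. All 9 gaining ones lay on chromosome 13, as did 38 of the 43. The median level of the 43 was 10.97, against 9.9 over the 8316, and derived standard errors are smaller at higher levels. Smaller differences can therefore be called there. H2bc8, with 0.20 and an error of 0.0552, was called, while P4ha2, with 0.31 and an error of 0.154, was not. The peak shared by H2bc15 and H2ac15 had the highest level of the 192 and went from 11.75 to 12.08 log2, 3444 to 4330 reads (adjusted p = 1.37e-07 in the authors' deposited table). H1f3, for a linker histone, rose by 0.25, H3c4 with H2ac7 by 0.33 and H3c11 by 0.27, with adjusted p-values of 0.00153, 0.0195 and 0.0146 in the authors' deposited table. The peaks shared by H2ac12 and H2bc12, H2ac4 and H3c2, and H2bc8 and H2ac8 rose by 0.22, 0.21 and 0.20 and were also called, with adjusted p-values of 0.00638, 0.0138 and 0.00831 in the authors' deposited table. A narrow peak beside H2ac15, with 0.36, and the peak of H3c10 and H2ac13, with 0.22, were not, at 0.102 and 0.245 in the authors' deposited table. The only called higher gene-end peaks at the level limit outside the 192 were histone peaks as well, each at 0.19. They lay at H2bc11 with H2ac11 on chromosome 13 and at H3c13 with H2bc18 on chromosome 3. Histone genes have near-identical copies, and how the authors placed reads that match several copies is not given in the sources used here, so values of single copies are uncertain.

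**Figure D2:**
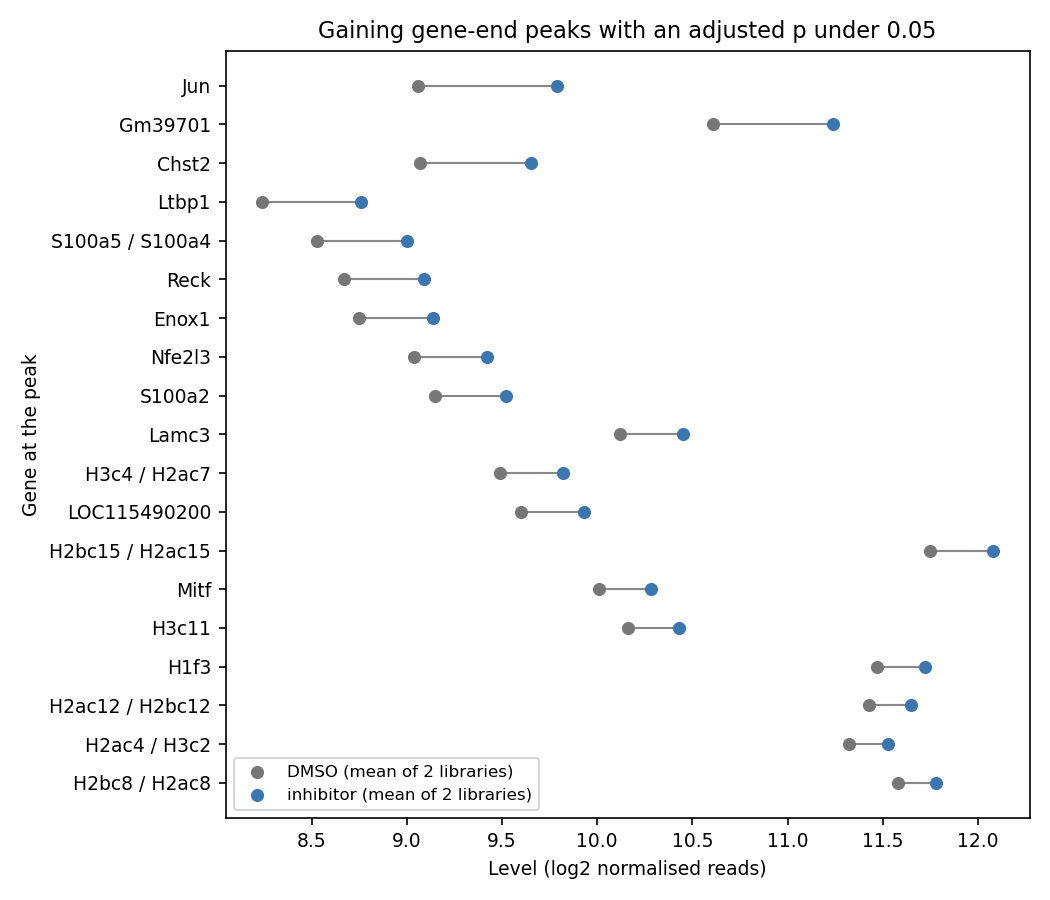
Levels in DMSO (grey) and under the inhibitor (blue) of the 19 called gaining peaks, in log2 normalised reads, with 1 line per peak and the genes within 1 kb on the y axis. Points are the authors' means of 2 libraries. Jun has the widest gap, 0.73, and 5 of the histone peaks sit furthest to the right with gaps of 0.20 to 0.33.

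The share of gaining peaks was lower at higher levels, apart from the histones. Gains made up 7.03% of 1067 gene-end peaks at levels of 8.5 to 9.0, 4.69% of 1622 at 9.0 to 9.5 and 1.26% of 1823 at 9.5 to 10.0. The share of losing peaks, with a fall of at least 0.2 log2, went from 9.09% to 5.05% over these levels. The median derived standard error went from 0.135 to 0.101 over the same levels. In the strongest 2099 gene-end peaks, from 2 log2 above the limit upward, 7 gained and 49 lost. Of these 7, 5 were histone peaks, and the others lay at Gm39701 and Lars2. At levels of 11 or more, all 20 histone peaks lay above 0, against 205 of 835 other gene-end peaks.

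**Figure D3:**
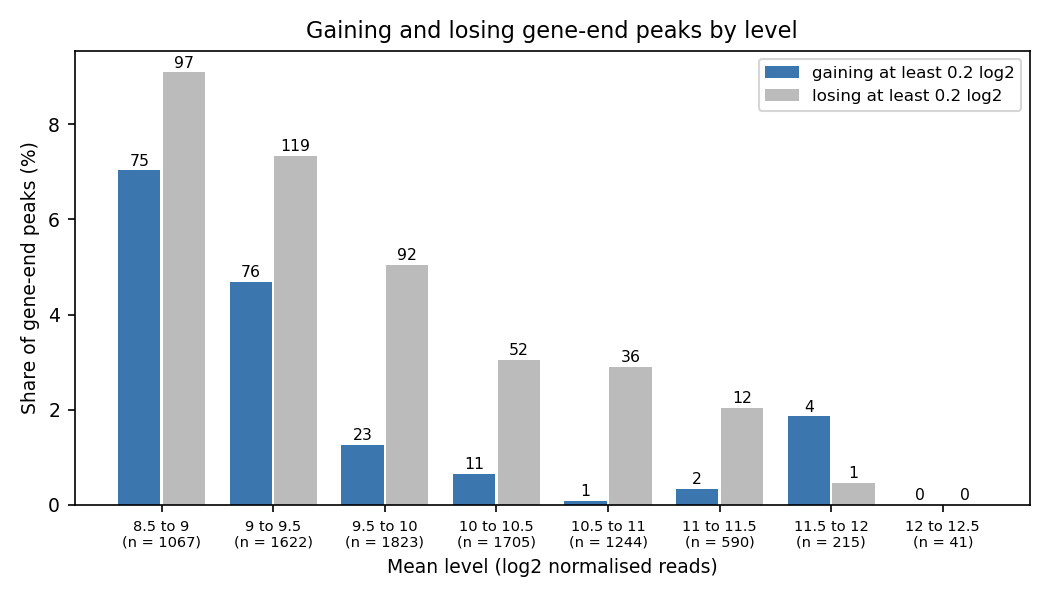
Share in percent of gene-end peaks that gained (blue) or lost (grey) at least 0.2 log2, by mean level in log2 normalised reads. Numbers over the bars count peaks. Gaining shares fall from 7.03% at 8.5 to 9.0 to 0.08% in the fifth pair of bars, and the 4 gaining peaks at 11.5 to 12 are all histone peaks. The bins with fewer than 10 peaks are not drawn.

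The peak near Gm39701, a predicted gene on chromosome 1, had the smallest p of the gaining peaks. It spanned 2729 bp, the widest of the 192, and went from 10.61 to 11.24 log2, 1563 to 2419 reads (adjusted p = 1.27e-15 in the authors' deposited table). Its centre lay 936 bp upstream of the annotated start. The Lars2 peak, near the far end of a mitochondrial leucyl-tRNA synthetase gene, was 390 bp wide at a level of 11.38 and had 0.20, while the peak at the Lars2 start had -0.16. LOC115490200, a predicted gene, was called as well, from 9.60 to 9.93 (adjusted p = 0.0121 in the authors' deposited table), as was Enox1, for an electron-transfer enzyme of the cell surface, from 8.75 to 9.14 (adjusted p = 0.0294 in the same table). Of 19 other tested peaks in Enox1, 1 was called lower, and their median was -0.20.

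Large differences did not always pass. The second widest gap without a call belonged to Mrgprf, for an orphan G protein-coupled receptor, with levels of 8.81 and 9.26 and a deposited adjusted p of 0.381. Nudt3, for a diphosphoinositol polyphosphate hydrolase, had the widest, with levels of 8.45 and 9.01 and a deposited adjusted p of 0.477. Their derived standard errors were 0.253 and 0.355, against a median of 0.126 over the 192 peaks. Errors above 0.2 were found at 21 of the 192, or 10.9%, and at 5.04% of the other tested gene-end peaks at the level limit, reweighted to the levels of the 192. The error was derived from the difference that chose the peaks, so nothing is read from the gap between these shares. Among the 21 peaks are those at Rpap3, Siah1a, Cmtr1, Foxo1, Lhx6 and Smad5. What differed between their libraries cannot be read from group means.

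Genes for signalling, the cytoskeleton and protein turnover filled much of the remainder without any call. The groups were formed after the values were seen, and their genes were not counted among the other gene-end peaks. At receptor and signalling genes lay 19 peaks, with differences of 0.20 to 0.45 and a median of 0.24. They include the Wnt ligand gene Wnt9a with 0.30, the Frizzled receptor genes Fzd8 and Fzd6 with 0.27 and 0.26, Ctnnb1, for beta-catenin, with 0.25, Notch1 with 0.27 and the feedback inhibitor Spry1 with 0.24. Cytoskeletal genes had 14 peaks between 0.20 and 0.30, among them the actin-binding profilin gene Pfn2 with 0.30 and the formin gene Fmnl2 with 0.24. The ubiquitin and SUMO pathway had 8, among them the cullin genes Cul2 with 0.28 and Cul5 with 0.21 and the SUMO protease gene Senp6 with 0.29. RNA processing and translation had 13, with a median of 0.21. Metabolic and mitochondrial genes had 16 peaks between 0.20 and 0.29, among them Cpox, of heme synthesis, with 0.21, Gyg, which primes glycogen, with 0.22 and Sucla2, of the citric acid cycle, with 0.23. Genes of membrane traffic and autophagy had 11 between 0.20 and 0.31, among them the sorting nexin gene Snx4 with 0.25 and the autophagy gene Atg12 with 0.25. The remaining 67 gaining peaks fell into no such group and had a median of 0.24, with 3 called, at Gm39701, LOC115490200 and Enox1. Of 14 genes for arginine methyltransferases and their partners with a peak, 1 had a gaining and 1 a losing peak. The gaining one was at Prmt9, for a type II arginine methyltransferase, with levels of 9.44 and 9.70 (adjusted p = 0.214 in the authors' deposited table).

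Among the gene lists, histones stood at one extreme. Over all 9230 genes with a gene-end peak at the level limit, 214, or 2.32%, had a gaining one. Of 55 histone genes with such a peak, 14 had a gaining one, or 25.5%, and 16 had a called higher one. Neighbouring histone genes share peaks, so the 14 genes rest on 9 gaining peaks and the 16 on 9 called higher ones. The list of Wnt, Hippo, TGF-beta and Notch genes had 3 of 31, Notch1, Ctnnb1 and Tcf7l1. It also had 3 genes with a losing peak, and 10 of its 31 genes lay above 0, with a median of -0.06. Actin and adhesion genes had 3 of 32, Myl6, Ctnnb1 and Myl12b, besides 2 with a losing peak, and a median of -0.055. Splicing factor genes had 3 of 104, Snrpf, Hnrnpa2b1 and Rbm43, besides 4 with a losing peak, and a median of -0.04. Zfp zinc finger genes had 4 of 229, led by Zfp932 with 0.32, besides 7 with a losing peak, and a median of -0.02. No gaining peak was found at 77 cytosolic ribosomal protein genes, 62 translation factor genes, 46 proteasome genes, 92 chromatin modifier genes, 34 cell cycle genes, 35 DNA replication and repair genes or 38 interferon and class I genes. With 2.32% of all genes gaining, each of these lists would hold few gaining genes, and the lists were not matched for level. Nothing is therefore read from their zeros. All lists were described with no test. The number of genes with a median above 0 was 53 of 55 for histones and 3270 of 9230 over all genes.

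**Figure D4:**
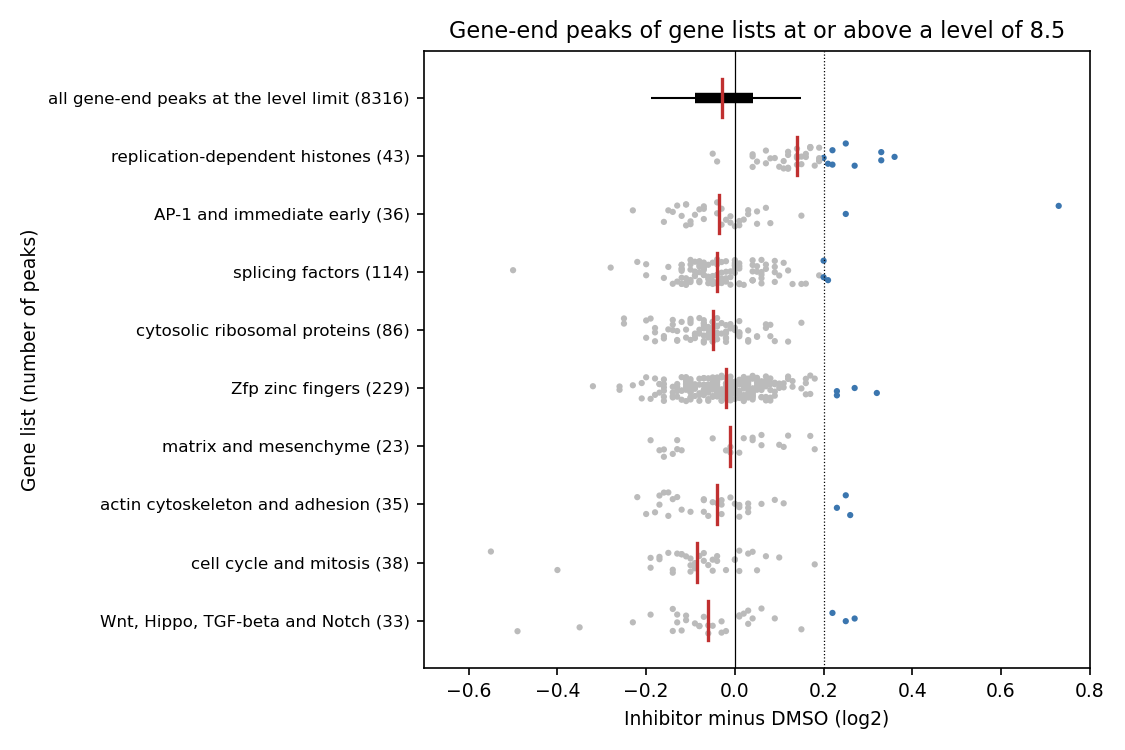
Difference inhibitor minus DMSO in log2 (x axis) of gene-end peaks at the level limit, by gene list (y axis, with the number of peaks). Points are peaks, blue where they gained at least 0.2, and red lines are medians. The top row gives all 8316 peaks with the quartiles as a thick bar and a thin bar that leaves out 0.05 of the peaks at either side. The histone median of 0.14 lies to the right of the median of all, -0.03.

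Gaining peaks were set beside other gene-end peaks of like level. The other 8124 gene-end peaks at the level limit were reweighted so that their levels, in steps of 0.5 log2, matched those of the 192. The nearest gene end was the start for 74.0% of gaining and 73.8% of other peaks, the far end for 9.9% and 5.44%, and an end of unknown kind for 16.1% and 20.7%. The median distance from the centre to the nearest end was 217 bp against 173 bp. More than 1 gene lay within 1 kb of 13.5% and 12.4%. A CpG-rich promoter was found at 75.6% of the 135 gaining peaks that contain an annotated start with a sequence, and at 74.2% of the others. Gaining peaks were wider, with a median of 1156 bp against 965 bp, and 62.0% against 45.7% spanned at least 1 kb. Their centres lay downstream of the start in 67.4% against 59.8%. The nearest gene was under 5 kb long for 17.2% against 10.7%, and without histone peaks for 13.1% against 10.5%. It had a symbol of predicted type for 6.25% against 2.94%. These shares carry no test.

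Some gains lay at the far end of a gene with no start nearby. There were 14 such peaks, 10 with their centre beyond the gene and 4 inside it. They made up 7.29% of the 192, against 4.97% of the reweighted others. Of the 8 whose gene also had a peak at its start, 4 start peaks lay above 0 and 4 below, with a median of 0.00. H2ac15 and Hrct1 are short genes whose start peaks had 0.33 and 0.29. At the other 6 the start peaks did not reach the limit, with 0.01 at Jun, 0.13 at Ptpn18, -0.10 at Nol12, -0.07 at Zswim4, -0.16 at Lars2 and -0.01 at Hnrnpa2b1. The other 6 far-end peaks lay at Nfe2l3, Sgk1, Clpsl2, Jund, Plbd1 and Rap1gap, with differences of 0.22 to 0.38.

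The shares of promoter windows with each motif are given with no test, and several rest on 2 to 5 gaining windows. GC boxes were found in 68.1% of 135 gaining windows and 69.0% of reweighted other windows, against 46.2% of all 21262 promoter windows of protein-coding genes. For CCAAT boxes the shares were 33.3%, 34.2% and 38.2%, and for the E-box CACGTG 11.1%, 11.7% and 7.84%. The ETS site CCGGAAG was found in 12.6% of gaining windows, 21.8% of others and 11.6% of all. TATA boxes were found in 11.1%, 5.90% and 12.6%. Of the 15 gaining windows with a TATA box, 8 belonged to histone genes, and without histones the share was 5.51% of 127. All 8 histone windows of the gaining peaks held a TATA box and a CCAAT box and none a GC box, with 34.7% to 45.7% G and C. Of 29 windows at other histone peaks, 12 held a TATA box, 23 a CCAAT box and 13 a GC box. The AP-1 site TGACTCA was found in 1.48%, 3.41% and 4.66%, and the cAMP response element in 3.70%, 3.78% and 2.23%. The NRF1 site had 2.22%, 3.59% and 1.33%, the E2F site TTTCCCGC 1.48%, 2.52% and 1.41%, and the YY1 site AAGATGGC 2.22%, 6.11% and 3.05%.

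**Figure D5:**
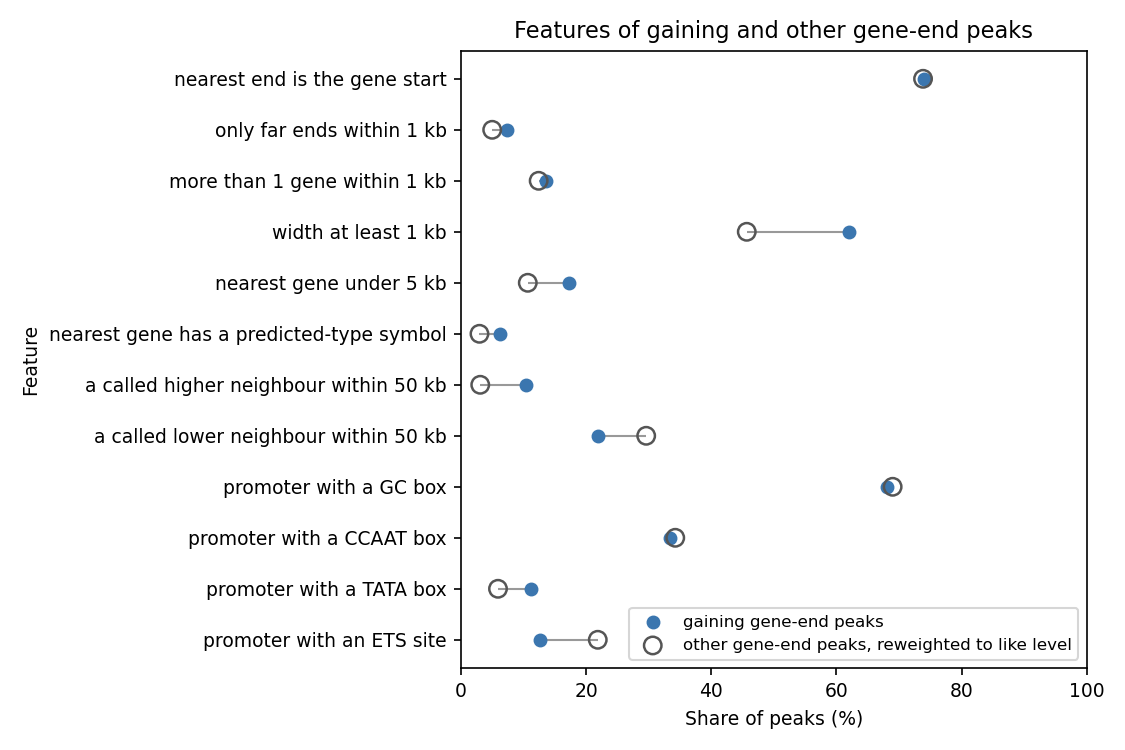
Share of peaks in percent (x axis) with each feature (y axis) for gaining gene-end peaks (filled) and other gene-end peaks reweighted to like level (open circles). Promoter features are over peaks that contain an annotated start with a sequence. The shares nearly coincide for the gene start and lie furthest apart for a width of at least 1 kb, at 62.0% and 45.7%.

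Peaks around the gaining ones differed in direction. Other tested peaks in the same gene had a median of -0.09 at gaining peaks and -0.08 at the reweighted others, and peaks within 50 kb had -0.04 and -0.07, signs that taking off the constant of -0.0794 log2 between the groups' summed reads would turn for the second pair. The median of these neighbours lay above 0 at 63 of the 192, or 32.8%, against 23.9% of the others. A called higher neighbour within 50 kb was found at 20 of the 192, or 10.4%, against 3.06% of the others. Without histone peaks this was 12 of 183, or 6.56%, against 2.85%. A called lower neighbour was found at 21.9% against 29.6%. These values come from the contrast that chose the peaks, and they are a description.

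In 11 places, gaining peaks lay within 100 kb of one another, which held 26 of the 192. Histone clusters on chromosome 13 gave 4 gaining peaks among 9 gene-end peaks over 66.0 kb and 3 among 6 over 21.2 kb, and all of these gene-end peaks lay above 0. On chromosome 8, peaks at Jund, Iqcn and Gm3336 spanned 19.1 kb with differences of 0.25 to 0.39 and no call. With counts assigned to groups by column order, the Iqcn peak there was called in 0 DMSO libraries and in 2 inhibitor libraries. Of the 192 peaks, 189 were called in all 4 libraries. Hrct1 and Rhpn1 each had 2 gaining peaks, with 0.35 and 0.29 and with 0.30 and 0.27. Zfp932 lay 72.8 kb from LOC115490200 on chromosome 5, and Fzd6 55.3 kb from Baalc on chromosome 15. Chromosome 13 had the highest share of gaining gene-end peaks, 18 of 326, or 5.52%, and 9 of 288, or 3.13%, without histone peaks. Among the other autosomes the share ran from 1.51% on chromosome 7 to 3.08% on chromosome 9, and it was 1.09% on the X chromosome.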

How the data were processed

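ATAC-seq, which marks open DNA by transposase insertion, was run on 2 DMSO and 2 inhibitor libraries. The submitters' processing notes list DiffBind (2.8.0), DESeq2, HISAT2 (2.1.0), MACS2 (2.1.1.20160309) and Picard (1.113), with mm10 as the build. Settings and any correction for the transposase offset were not given in the sources used here. Deposited values are log2 mean normalised reads per group and over both, their log2 fold, and a p-value and adjusted p-value per peak, per the file header. The file also gives, for either group, in how many libraries a peak was called. Which count belongs to which group was taken from DiffBind's column order, as the header does not name the groups there. The file holds no values per library, so the planned count test could not be run and depth is unknown.

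Differences were turned to inhibitor minus DMSO. A peak counts as tested where its deposited adjusted p is under 1, which held for 74791 peaks. A standard error was derived from each difference and its two-sided p under a normal distribution. Gene ends came from a RefSeq table of GRCm38.p6 with 21896 protein-coding genes. Strand and starts came from a RefSeq promoter table that holds 79.9% of them, and the kind of nearest end is unknown for 31 gaining peaks. A CpG-rich promoter has at least 50% G and C and an observed to expected CpG ratio of at least 0.6 over 300 bases. Predicted type means a symbol with Gm and digits, LOC or Rik. Of the gene list symbols, 3 were not in the table.

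The members and lists were chosen with earlier results of these data known. Named genes were those with the 12 largest differences, the 8 highest levels, the 15 smallest adjusted p-values among calls, places beside the limit, membership of a list, or shared peaks. Mitf, the far-end genes and genes of the role groups were added after values were seen. Limits, scalings, gene windows and the comparison set were varied. Python 3.11.15, pandas 2.3.3, numpy 2.4.6, scipy 1.17.1 and matplotlib 3.10.9 were used, and the code was tested on simulated data.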

Additional observations from a re-analysis of the deposited data

How the results depend on the processing

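Counts depend on the limits by construction: 117 peaks gained at a level limit of 9.0, 932 at a difference limit of 0.1 and 32 at 0.3. Of the 192, 9 were called at an adjusted p of 0.01 and 30 at 0.10. Taking a constant of -0.0794 log2 off every difference, which equalises the groups' summed reads, gave 615 gaining peaks with 70 called. Setting the median of tested peaks, -0.07, to 0 gave 615 with 59 called; of the 192 themselves, 46 and 37 were called. The other alternatives kept both counts within 1.5 times: a level limit of 8.0, windows of 500 bp and 2 kb, no predicted genes and gene starts only, and, added after seeing the data, the deposited fold column and peaks called in all 4 libraries.

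Without reweighting, 77.9% of other gene-end peaks lay nearest a start, 17.3% had more than 1 gene and 56.6% spanned 1 kb. Among peaks within 0.1 of 0, the first and last shares were 75.1% and 46.9%. Precision is limited by group means of 2 libraries and by few reads at weak peaks. Leaving out a replicate could not be run. No paired analysis was possible because the table gives no values per library.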
